A study of Mus musculus with 18 samples.

Results

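The genes described here encode the degradative machinery of the lysosome: 30 soluble hydrolases and their cofactors, 7 proteins of the lysosomal membrane and 16 subunits of the vacuolar proton pump (V-ATPase). These 53 genes were listed by function, and all of them matched an Ensembl row in the count tables, which hold 55487 genes. They were followed by RNA sequencing in WEHI-231, a mouse lymphoma line with the features of immature B cells. Libraries came from parental cells and from #A-59 and #B-20, clones with a mutated Tfeb gene, harvested without treatment (0 h) or 6 and 18 h after the BCR was ligated by anti-IgM F(ab')2 at 10 µg/ml, with 2 libraries from independent experiments in each of the 9 groups. Both mutant lines had been edited in the Tfeb gene with Cas9 ribonucleoproteins and grown from single cells, so that each stands for 1 clone, and neither was compared with an unedited clone here. The comparisons asked how lysosomal transcripts respond to BCR ligation in each genotype, and how they differ between TFEB mutant and parental cells.

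Lysosomal hydrolases are acid enzymes that are sorted to the lysosome by mannose 6-phosphate receptors or by partner proteins and take apart proteins, glycans, sulfated glycans and lipids. They need the acidic lumen made by the V-ATPase, whose peripheral V1 sector hydrolyses ATP and whose membrane-embedded V0 sector carries the protons across. Membrane proteins such as Lamp1 and Lamp2 line the organelle, and carriers such as Ctns and Npc1 export the products of digestion. In B cells these compartments process antigen that was taken up through the BCR. Many genes of this kind carry an E-box with the core CACGTG near the start of transcription, a letter sequence known to be bound by TFEB and its relatives Tfe3, Mitf and Tfec, and also by other factors.

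To show this feature of the genes, the core was searched in windows reaching from 250 bases before to 50 bases after each transcription start (RefSeq, GRCm38.p6). The core is its own reverse complement, so a match holds for both strands. Windows were found for 44 of the 53 genes, and 15 of these (34.1%) held at least 1 core, compared with 8.09% of all 27025 genes with a window and 11.5% of the 10172 genes that were also tested for expression. The shares were 33.3% of 27 hydrolase genes, 33.3% of 6 membrane genes and 36.4% of 11 V-ATPase genes. The longer letters TCACGTGA, which contain the core, stood in 7 of the 44 genes (15.9%), in 1.12% of all genes and in 2.22% of the tested genes. The still longer CLEAR palindrome that was also searched stood in 1 gene (2.27%), Cln3, in 0.37% of all genes and in 0.806% of the tested genes. The stretches printed here lie directly before a start or within its window, are written 5′ to 3′ along the gene, and carry the core in capitals. For Cln3, Ctsa and Atp6v1a the start used lies inside the outer bounds of the gene, and so does the stretch. That of Atp6v0b reaches a few bases into the gene. They were chosen because they show the densest cluster of cores (Lamp1), the CLEAR palindrome (Cln3) and examples of 1 or 2 cores in hydrolase and pump genes.
Lamp1 (chr8:13159080-13159160, plus strand): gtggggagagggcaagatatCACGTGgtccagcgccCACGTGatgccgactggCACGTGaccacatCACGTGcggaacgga
Cln3 (chr7:126583332-126583405, minus strand): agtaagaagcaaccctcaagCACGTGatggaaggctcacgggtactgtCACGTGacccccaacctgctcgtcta
Ctsa (chr2:164833741-164833772, plus strand): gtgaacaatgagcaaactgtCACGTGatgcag
Gla (chrX:134601174-134601252, minus strand): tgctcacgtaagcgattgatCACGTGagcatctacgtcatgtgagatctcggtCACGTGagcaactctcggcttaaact
Sgsh (chr11:119355514-119355559, minus strand): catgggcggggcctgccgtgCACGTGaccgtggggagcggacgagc
Arsa (chr15:89477425-89477460, minus strand): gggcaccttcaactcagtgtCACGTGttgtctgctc
Atp6v0b (chr4:117887330-117887385, minus strand): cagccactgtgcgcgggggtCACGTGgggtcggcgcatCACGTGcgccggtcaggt
Atp6v1a (chr16:44139365-44139410, minus strand): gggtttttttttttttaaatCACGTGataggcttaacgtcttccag
Lamp1 held 4 cores within 81 bases, and the stretches of Cln3, Gla and Atp6v0b held 2 each. A core was present in 6 of the 19 genes with a window that rose in parental cells at 18 h (31.6%) and in 8 of the 20 that were tested and did not (40.0%). No window was matched for Ctsh, Ctsb, Atp6v1b2 or Atp6v1h.

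The 18 libraries held between 11223588 and 29655262 counts, and levels are given as CPM, the counts scaled to library size after TMM normalization. All 9 B cell markers were present. Macrophage markers summed to 4.05 to 30.6 CPM with 4 of 12 listed markers at 0 in every library, and T cell markers came almost entirely from Lck (41.7 to 147 CPM). Tfeb itself lay between 79.2 and 99.9 CPM in the parental libraries and between 25.5 and 54.1 CPM in those of the clones. At 6 h the libraries of the clones stood apart. Replicate 2 of #B-20 had 24256 genes detected (20454 to 23346 in the other libraries), and the 2 libraries of #A-59 differed by a median of 0.171 on the log2 scale over the 48 tested lysosomal genes, compared with 0.0545 to 0.106 in the other groups. In bulk RNA, fewer cells of a kind and less RNA per cell cannot be told apart.

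Enough reads for a test were obtained for 48 of the 53 genes. The other 5 were close to the limit of detection in all genotypes: Galc, the galactosylceramidase, was listed with 1 count in all 18 libraries together, Arsb (arylsulfatase B) with at most 3, the tetraspanin gene Cd63 with at most 3, Hexa (the alpha subunit of beta-hexosaminidase) with at most 4 and Ctsl (cathepsin L) with at most 14 counts in any library. A library with 0 counts allows up to 3, which covers counting error only. Among the 48 tested genes, 26 encode hydrolases or cofactors, 6 membrane proteins and 16 V-ATPase subunits. Throughout, "rose" and "fell" mean an FDR under 0.01 in edgeR's quasi-likelihood test, and DEGs also had a log2 fold change above 1 or below −1. Since the libraries were not stranded, reads in exons that overlap another gene cannot be told apart, which concerns for example Ctsa (Pltp and Neurl2), Ctsb (Fdft1), Ctsz (Nelfcd), Gusb (Vkorc1l1) and Sgsh (Card14).

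In parental cells, BCR stimulation for 6 h raised the RNA of most lysosomal proteases. Of the 48 genes 14 rose and 1 fell, whereas 3.1% of all 15318 genes tested rose and 4.24% fell, and 42 of 48 log2 fold changes were positive with a median of 0.26 (0.0077 over all genes). Proteases made up 6 of the 14, namely Ctsa, Ctsb, Ctsc, Ctsd, Ctsz and Tpp1, with log2 fold changes from 0.38 to 1.0, and Ctsh, a further cathepsin, had a log2 fold change of −0.09. The glycosidases Gaa, which degrades glycogen, and Gla, which removes terminal galactose from glycolipids, rose by 0.52 and 0.77 on the log2 scale. Of the membrane genes, the cystine exporter Ctns and the cholesterol exporter Npc1 rose, and of the V-ATPase genes Atp6v1b2, Atp6v1c1, Atp6v1h and Atp6ap2 rose. None of the 3 tested sulfatases and none of the 4 lipid hydrolases passed. When 1 of the 4 libraries of this comparison was left out, 8 genes passed without replicate 1 at 0 h or at 6 h, and 5 without replicate 2 at 0 h or at 6 h.

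Cathepsin Z, a carboxypeptidase, was the only DEG of the 48 genes at 6 h, where 2.62% of all genes tested were DEGs. Ctsz (chr2:174427494-174439039) had 184 and 181 CPM in untreated parental libraries, 376 and 355 CPM after 6 h and 168 and 157 CPM after 18 h. Both 6 h libraries were far above the untreated ones, and both 18 h libraries were below them. The log2 fold change was 1.0 at 6 h (SE 0.13, FDR = 3.60e-05), and from 6 to 18 h Ctsz fell by 1.17 (FDR = 9.26e-07). The single gene that fell at 6 h was Man2b1, the lysosomal alpha-mannosidase of glycoprotein breakdown (chr8:85082730-85098739). It had 168 and 182 CPM untreated, 127 and 134 CPM after 6 h and 316 and 324 CPM after 18 h, so that the time points did not overlap. It fell by 0.42 at 6 h (SE 0.09, FDR = 0.00335) and rose by 0.87 at 18 h (FDR = 3.83e-07).

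After 18 h the response was broader and had a different make-up. In parental cells 24 of the 48 genes rose and 1 fell, whereas 16.4% of all genes tested rose and 16.2% fell. The median log2 fold change was 0.34, compared with 0.043 over all genes. By class, 15 of 26 hydrolase genes, 4 of 6 membrane genes and 5 of 16 V-ATPase genes rose. Within the hydrolases, 6 of 7 proteases, both cofactors (Psap, the precursor of the saposins, and the cholesterol carrier Npc2), 3 of 4 lipid hydrolases, 2 of 3 sulfatases (Arsa and Sgsh) and 2 of 10 glycosidases (Man2b1 and Gla) rose. The one gene that fell was Gusb, the beta-glucuronidase. The number passing was 18 to 19 when 1 of the 4 libraries was left out. The summed level of all 53 genes was 4931 and 5013 CPM untreated, 5742 and 5815 CPM after 6 h and 6536 and 6522 CPM after 18 h in parental cells. It was higher at each later time without overlap, and Psap alone gave 1212 and 1241 CPM of it at 0 h and 1634 and 1600 CPM after 18 h.

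**Figure D1:**
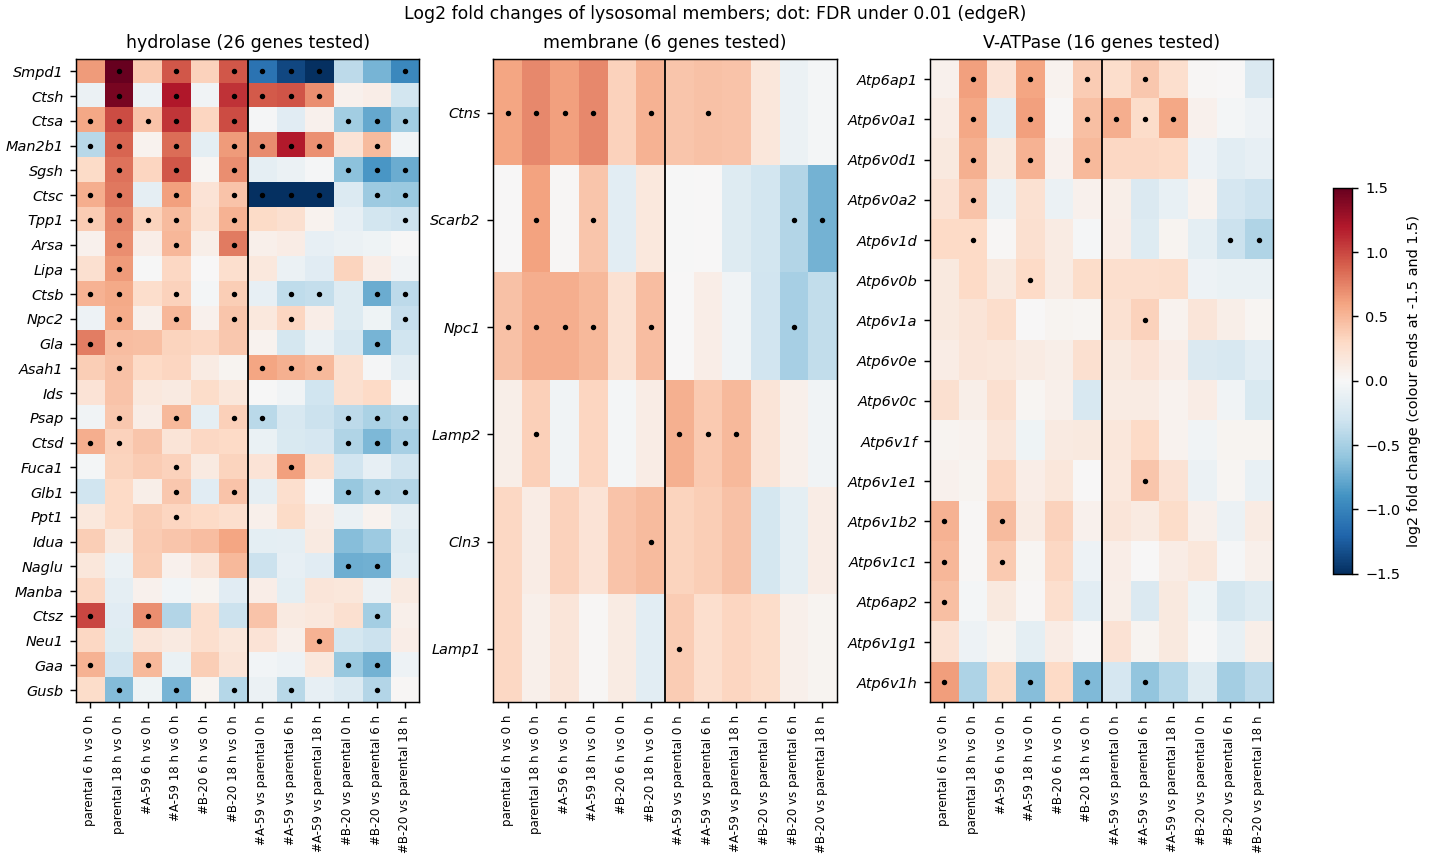
Colours give the log2 fold change of each of the 48 tested genes (rows, by class, ordered by the parental 18 h response) for the 6 responses to anti-IgM and for the 6 clone-to-parental differences (columns); a dot marks an FDR under 0.01. The 18 h columns are red in all 3 genotypes for most hydrolases, with Gusb blue, and 14 genes carry a dot for a rise in parental cells at 6 h and 24 at 18 h.

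Acid sphingomyelinase and cathepsin H were the 2 DEGs of the 48 genes at 18 h in parental cells, where 10.3% of all genes tested were DEGs. Smpd1 (chr7:105554360-105558389), which splits sphingomyelin into ceramide, had 5.75 and 6.99 CPM untreated, 9.31 and 10.5 CPM after 6 h and 17.5 and 18.5 CPM after 18 h in parental cells. The levels of the 3 time points did not overlap. The log2 fold change was 1.5 at 18 h (SE 0.18, FDR = 1.92e-06), and its 6 h value of 0.64 did not pass. Ctsh (chr9:90054267-90076095), an aminopeptidase among the cathepsins, had 63.1 and 68.5 CPM untreated, 62.3 and 61.3 CPM after 6 h and 179 and 173 CPM after 18 h. Its level was thus raised only in the late libraries, with a log2 fold change of 1.42 (SE 0.10, FDR = 5.11e-09) against 0 h and of 1.51 against 6 h. Cathepsin A (Ctsa, chr2:164832872-164841032), which is also the protective protein of beta-galactosidase and neuraminidase, rose at both times. It had 63.3 and 69.3 CPM untreated, 94.5 and 103 CPM after 6 h and 131 and 130 CPM after 18 h, with log2 fold changes of 0.58 (SE 0.09) and 0.98 (SE 0.09). Gusb (chr5:129989011-130003049) had 73.1 and 78.2 CPM untreated, 91.2 and 92.2 CPM after 6 h and 48.8 and 47.3 CPM after 18 h, and both late libraries were below all others. It fell by 0.66 at 18 h (SE 0.12, FDR = 1.42e-04).

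Among the membrane genes Ctns and Scarb2 changed most at 18 h. Ctns (chr11:73183133-73199115) had 14.2 and 12.9 CPM untreated, 19.7 and 21.2 CPM after 6 h and 22.8 and 22.0 CPM after 18 h, and its log2 fold change was 0.59 at 6 h (FDR = 0.00121) and 0.72 at 18 h (FDR = 5.25e-05). Scarb2 (chr5:92441311-92505657), the receptor that carries beta-glucocerebrosidase to the lysosome, had 29.3 and 30.5 CPM untreated, 31.5 and 28.4 CPM after 6 h and 44.4 and 46.2 CPM after 18 h. Only its 18 h libraries stood above the rest, with a log2 fold change of 0.60 (FDR = 4.33e-05). Npc1 and Lamp2 also rose at 18 h, by 0.54 and 0.36, and the values of Lamp1 (0.07) and Cln3 (0.11) did not pass.

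The V-ATPase genes are given here by sector. At 6 h 3 of 8 V1 genes and none of 6 V0 genes rose in parental cells, and at 18 h 3 of 6 V0 genes (Atp6v0a1, Atp6v0a2 and Atp6v0d1) and 1 of 8 V1 genes (Atp6v1d) rose. Of all genes tested, 3.1% rose at 6 h and 16.4% at 18 h, so that the V1 share at 18 h was near that of all genes, and the difference between the sectors was not tested. The median log2 fold change of the V0 genes was 0.15 at 6 h and 0.36 at 18 h, and that of the V1 genes was 0.26 and 0.03. Atp6v0a1 (chr11:101009422-101063719), the large membrane subunit, had 207 and 226 CPM untreated, 226 and 241 CPM after 6 h and 321 and 329 CPM after 18 h. Atp6ap1 (chrX:74297097-74304721), an accessory protein of V0 assembly, had 112 and 119 CPM untreated, 120 and 121 CPM after 6 h and 178 and 174 CPM after 18 h. In both genes only the 18 h libraries were raised, with log2 fold changes of 0.58 (SE 0.08, FDR = 5.44e-06) and 0.61 (SE 0.08, FDR = 5.71e-06). Of the pump genes whose promoter stretches are printed, Atp6v0b had 84.5 and 82.2 CPM untreated and 100.3 and 104 CPM after 18 h in parental cells, and Atp6v1a had 192 and 193 CPM and then 217 and 221 CPM. Both pairs were above the untreated ones, but neither gene passed (log2 fold changes of 0.29 and 0.19).

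Several V1 genes had their highest levels at 6 h. Atp6v1b2, a subunit of the ATP-binding head, had 208 and 200 CPM untreated, 295 and 290 CPM after 6 h and 214 and 201 CPM after 18 h. Atp6v1h (chr1:5082978-5163213), which couples ATP hydrolysis to transport, had 9.37 and 8.32 CPM untreated, 13.2 and 14 CPM after 6 h and 6.87 and 6.07 CPM after 18 h. Both were raised at 6 h, and at 18 h the Atp6v1b2 libraries overlapped with the untreated ones while both Atp6v1h libraries were below them. The 18 h libraries were therefore also compared with the 6 h libraries of the same genotype, a comparison chosen after the values were seen. In this comparison 16 of the 48 genes rose and 9 fell in parental cells (19.4% of all genes tested rose and 18.9% fell), 14 rose and 6 fell in #A-59 (14.9% and 17% of all genes), and 13 rose and 6 fell in #B-20 (11.5% and 11.1%). Atp6v1b2, Atp6v1c1 and Atp6v1h fell from 6 to 18 h in all 3 genotypes, by 0.28 to 0.50, 0.37 to 0.47 and 0.92 to 1.08 on the log2 scale. Atp6v0a1, Atp6v0d1 and Atp6ap1 rose in all 3. The remaining V1 genes (Atp6v1a, Atp6v1d, Atp6v1e1, Atp6v1f and Atp6v1g1) did not pass from 6 to 18 h in any genotype. Neither did the remaining V0 genes (Atp6v0a2, Atp6v0b, Atp6v0c and Atp6v0e). The accessory gene Atp6ap2 fell in parental cells and #B-20 (log2 fold changes of −0.48 and −0.41) and did not pass in #A-59. Falls were about as frequent as over all genes in parental cells and #B-20, and less frequent in #A-59. The shares of all genes that rose or fell from 6 to 18 h in all 3 genotypes were not computed. With 1 library left out, 18 to 20 genes passed in parental cells, 11 to 18 in #A-59 (11 without replicate 1 at 18 h) and 10 to 13 in #B-20 (10 without replicate 1 at 6 h or at 18 h, 11 without replicate 2 at 6 h).

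**Figure D2:**
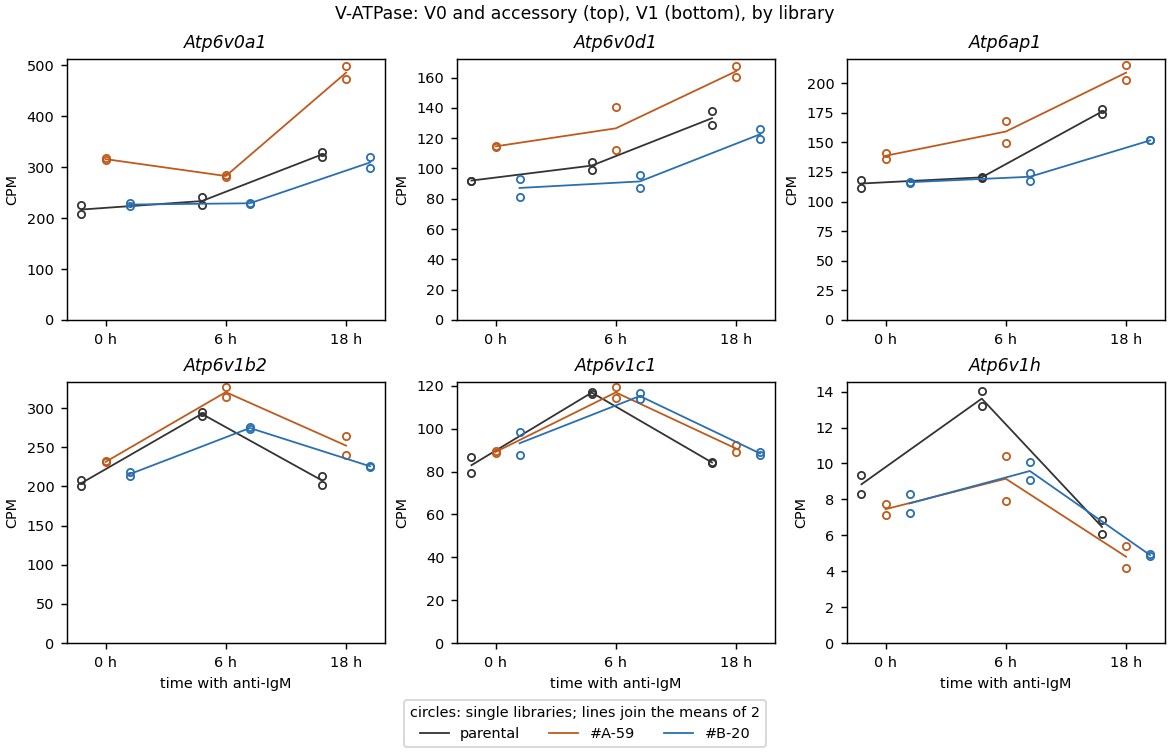
CPM of 6 V-ATPase genes (vertical axis from 0) at 0, 6 and 18 h of anti-IgM (horizontal axis) in parental cells, #A-59 and #B-20; circles are single libraries and lines join the means of 2. Levels of Atp6v0a1, Atp6v0d1 and Atp6ap1 are highest at 18 h, whereas those of Atp6v1b2, Atp6v1c1 and Atp6v1h peak at 6 h, for example 295 and 290 CPM of Atp6v1b2 in parental cells. The other V0 and V1 genes, which are not shown, did not pass from 6 to 18 h in any genotype.

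Over all classes, the genes were sorted into 3 courses in parental cells by which of these tests passed. The comparison of 18 h with 6 h reuses the same libraries, so it is no separate check of the sorting. The share of all genes with each course was not computed. In 6 genes (Ctsz, Gaa, Atp6v1b2, Atp6v1c1, Atp6v1h and Atp6ap2) the rise was seen at 6 h and not at 18 h, and all 6 fell from 6 to 18 h. In 8 genes (Ctns, Ctsa, Ctsb, Ctsc, Ctsd, Gla, Npc1 and Tpp1) it was seen at both times. In 16 genes it was seen at 18 h and not at 6 h, and 12 of them rose from 6 to 18 h, among them Psap, Npc2, Arsa, Sgsh, Lipa (the lysosomal acid lipase), Atp6v0a1 and Atp6v0d1. The rest of the 16 (Asah1, Atp6v0a2, Atp6v1d and Lamp2) did not pass from 6 to 18 h.

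Lysosomal genes also rose at 18 h in both TFEB mutant clones. In #A-59 21 of the 48 genes rose and 2 fell (14.7% of all genes tested rose and 17.1% fell), and in #B-20 18 rose and 2 fell (11.4% and 11.4% of all genes). The median log2 fold changes were 0.31 and 0.26, compared with 0.023 and 0.025 over all genes. A rise at 18 h in all 3 genotypes was found for 16 genes, namely Arsa, Atp6ap1, Atp6v0a1, Atp6v0d1, Ctns, Ctsa, Ctsb, Ctsc, Ctsh, Man2b1, Npc1, Npc2, Psap, Sgsh, Smpd1 and Tpp1, and Gusb fell in all 3. Of all genes tested, 8.09% rose and 9.2% fell in all 3 genotypes. Atp6v1h fell by 0.63 in #A-59 and also in #B-20, where the change was −0.67, whereas its parental value of −0.46 did not pass. Each genotype has its own untreated and stimulated libraries in these comparisons. With 1 library left out, 15 to 17 genes passed in #A-59, the lowest without replicate 1 at 18 h or replicate 2 at 0 h. In #B-20 9 to 16 genes passed, the lowest without replicate 2 at 0 h (9) and without replicate 1 at 0 h or at 18 h (10 each).

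Cathepsin H illustrates the shared late response. In #A-59 Ctsh had 119 and 130 CPM untreated, 111 and 126 CPM after 6 h and 283 and 290 CPM after 18 h. In #B-20 it had 66.3 and 71.4 CPM untreated, 60.1 and 72.7 CPM after 6 h and 144 and 147 CPM after 18 h. The 18 h libraries of each clone were above its other 4, with log2 fold changes of 1.20 (FDR = 2.76e-08) and 1.08 (FDR = 4.14e-07), which made it a DEG in all 3 genotypes at 18 h (8.76% of all genes were DEGs in #A-59 and 4.8% in #B-20). Ctsa likewise rose by 1.07 in #A-59, from 68.4 and 62.1 to 143 and 131 CPM, and by 0.98 in #B-20, from 46.3 and 46.4 to 96.5 and 85.8 CPM. Summed macrophage markers also differed between the groups, from 5.10 to 5.38 CPM untreated to 10.9 to 13.1 CPM after 18 h in parental cells, from 8.84 to 10.9 to 29.2 to 30.6 CPM in #A-59 and from 4.55 to 5.39 to 9.38 to 9.77 CPM in #B-20. Only Itgam and Fcgr1 of these 12 markers reached a mean of 1 CPM. The summed T cell markers, mostly Lck, were also higher after 18 h, with 128 to 147 CPM against 65.2 to 75.2 CPM untreated in parental cells, 111 to 113 against 68.0 to 68.7 CPM in #A-59 and 87.6 to 91.7 against 41.9 to 44.1 CPM in #B-20. The summed B cell markers were higher after 18 h as well, with 11500 to 11810 CPM against 8607 to 9351 CPM untreated in parental cells. In #A-59 they had 12300 to 13010 against 9135 to 9159 CPM, and in #B-20 10060 to 10680 against 7810 to 8118 CPM. The part of these marker lists in the lysosomal values was not tested.

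At 6 h fewer genes passed in the clones. In #A-59 8 genes rose and none fell (2.45% of all genes tested rose and 3.69% fell), namely Ctsa, Ctsz, Tpp1, Gaa, Ctns, Npc1, Atp6v1b2 and Atp6v1c1, all of which also rose in parental cells. This count was 3 without replicate 1 and 14 without replicate 2 of the 6 h libraries, 3 without replicate 1 and 1 without replicate 2 of the untreated ones, and 0 when only the libraries compared entered the fit. In #B-20 none of the 48 genes passed in edgeR's test (0.411% of all genes rose and 0.875% fell). An unadjusted p under 0.05 was found for 14 genes, and the share of all genes at that limit is not given here. In #B-20, 2 genes passed at an FDR under 0.05 and 1 passed with DESeq2. None passed with any 1 of its 4 libraries left out. Of the log2 fold changes, 41 of 48 were positive in #A-59 and 40 of 48 in #B-20, with medians of 0.19 and 0.12. Ctsz had 259 and 233 CPM untreated and 486 and 313 CPM after 6 h in #A-59, and 210 and 222 CPM untreated and 253 and 261 CPM after 6 h in #B-20. The stimulated libraries were above the untreated ones in both clones, but the pair in #A-59 lay far apart, and the log2 fold change of 0.70 became 0.34 without replicate 1 and 0.98 without replicate 2 at 6 h. In #B-20 the value was 0.25.

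Whether the response itself differed from the parental response was tested by the interaction term. None of the 48 genes passed in either clone at 6 or 18 h in edgeR's test, where 0.646% and 0.0392% of all genes passed for #A-59 and 0.183% and 0.222% for #B-20 at 6 and 18 h. At an unadjusted p under 0.05 there were 9 and 3 genes in #A-59 and 5 and 12 genes in #B-20. The shares of all genes at this unadjusted limit are not given here, so these counts cannot be set against the shares at an FDR under 0.01. Differences between responses ranged from −0.68 to 0.48 for #A-59 at 6 h and from −0.75 to 0.27 for #B-20 at 6 h. At 18 h they ranged from −0.57 to 0.32 for #A-59 and from −0.57 to 0.57 for #B-20. In #A-59 27 and 29 of the 48 differences were negative at 6 and 18 h (medians −0.040 and −0.045). In #B-20 35 of the 48 were negative at each time (medians −0.15 and −0.11). Whether these numbers differ from those over all genes was not tested. The median SE was 0.14, so that the 95% interval of a typical difference, from its SE, reaches 0.27 to either side. The nearest to the threshold were Ctsc in #A-59 at 6 h (difference −0.68, FDR = 0.0159) and Ctsb in #B-20 at 6 h (difference −0.55, FDR = 0.0237). Ctsc passed with DESeq2, with the replicate number as a block, without a filter on low counts, with the GC correction and without replicate 2 of #A-59 at 6 h. Ctsb passed with DESeq2, with the GC correction and in the fit of only the libraries compared, and Ctsz in #B-20 at 6 h (difference −0.75) passed without a filter, with the GC correction and in that same fit. Without replicate 1 of #A-59 at 6 h Ctsz passed in this clone (difference −0.66), and without replicate 2 Man2b1 passed (difference 0.55).

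Compared with parental cells, more lysosomal genes were higher than lower in #A-59, and more were lower than higher in #B-20, without correction for GC content and with all 18 libraries fitted. In #A-59 6 of the 48 genes were higher and 3 lower at 0 h (5.09% of all genes tested were higher and 4.47% lower), 11 were higher and 5 lower at 6 h (11.4% and 11.3%), and 6 were higher and 3 lower at 18 h (4.75% and 5.68%). At 6 h the counts were 2 and 2 when only the libraries compared entered the fit. With each library corrected for GC content they were 11 and 7 at 6 h. Across all genes, the differences of #A-59 at 6 h went with GC content (Spearman's rho of 0.196). In #B-20 none was higher and 7 were lower at 0 h (4.03% and 6.66%), 1 was higher and 15 lower at 6 h (6.23% and 8%), and none was higher and 12 lower at 18 h (5.7% and 8.55%). With the GC correction, 3 were higher and 3 lower in #B-20 at 0 h. All 6 comparisons use the parental libraries of their time point, which both clones share. The median log2 fold changes at 0, 6 and 18 h were 0.11, 0.11 and 0.10 in #A-59 and −0.09, −0.15 and −0.16 in #B-20, and the medians over all genes lay between −0.022 and 0.010. With 1 library left out, the numbers passing were 4 to 8, 5 to 18 and 5 to 7 for #A-59 and 1 to 3, 8 to 11 and 6 to 8 for #B-20. For #A-59 the number was 4 without its replicate 2 and 5 without the parental replicate 2 at 0 h, 8 and 5 without the parental replicates 1 and 2 at 6 h, and 5 without the parental replicate 1 at 18 h. For #B-20 at 0 h it was 3 and 1 without the parental replicates 1 and 2 and 2 without either #B-20 library. At 6 h it was 9 without the parental replicate 2 and 10 and 8 without the #B-20 replicates 1 and 2, and at 18 h it was 6 without the parental replicate 2 and 7 without the #B-20 replicate 1.

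**Figure D3:**
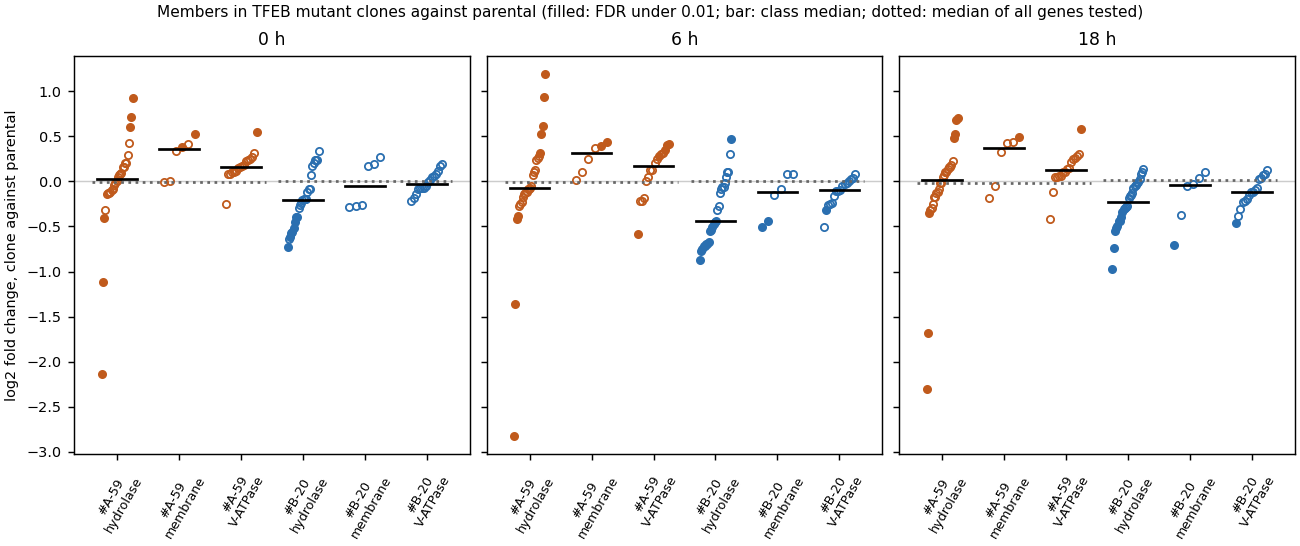
Each circle is the log2 fold change of 1 gene in a clone against parental cells (vertical axis) at 0, 6 or 18 h, by class; filled circles have an FDR under 0.01, bars are class medians and dotted lines the median of all genes tested. Most #B-20 hydrolases lie below 0 (medians of −0.20, −0.45 and −0.23), the #A-59 membrane and V-ATPase medians lie above 0, and the lowest #A-59 points are Ctsc and Smpd1.

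In clone #A-59 a few hydrolases differed widely, and the class median stayed near 0. The median log2 fold change of the 26 hydrolase genes was 0.02, −0.08 and 0.02 at the 3 times. Cathepsin C (Ctsc, chr7:88278024-88315861), the dipeptidase that activates granule proteases, had 237 and 241 CPM untreated, 335 and 365 CPM after 6 h and 413 and 412 CPM after 18 h in parental cells. In #A-59 it had 50.6 and 58.2 CPM, 45.6 and 53.6 CPM, and 85.0 and 82.1 CPM at the same times, and in #B-20 207 and 210 CPM, 231 and 248 CPM, and 256 and 305 CPM. No library of #A-59 came near those of the other genotypes, and #B-20 was below parental cells at each time. Ctsc fell by 2.14 (SE 0.10), 2.82 (SE 0.11) and 2.30 (SE 0.10) in #A-59 against parental cells at 0, 6 and 18 h (FDR at most 2.50e-11), and by 0.55 at 6 h and 0.56 at 18 h in #B-20, whose 0 h value of −0.20 did not pass. Despite the low level, Ctsc rose at 18 h in #A-59 by 0.62 (FDR = 7.28e-05).

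Smpd1 was also low in #A-59, with 3.59 and 2.12 CPM untreated, 3.79 and 3.93 CPM after 6 h and 5.40 and 5.85 CPM after 18 h. In #B-20 it had 4.82 and 4.84 CPM, 5.32 and 7.05 CPM, and 9.17 and 9.25 CPM. At 18 h both clones were below both parental libraries without overlap, with log2 fold changes of −1.68 (SE 0.19, FDR = 2.35e-06) and −0.97 (SE 0.17, FDR = 3.66e-04). At 0 h the value of #A-59 was −1.11 (FDR = 5.08e-04), and it fell below the threshold without replicate 2 of #A-59 (−0.82) or of parental cells (−0.97).

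Other lysosomal genes were higher in #A-59. Ctsh exceeded its parental level at all 3 times, with log2 fold changes of 0.92, 0.94 and 0.70, and so did Man2b1 (0.71, 1.19 and 0.68), the acid ceramidase Asah1 (0.60, 0.53 and 0.49), Lamp2 (0.53, 0.39 and 0.49) and Atp6v0a1 (0.54, 0.28 and 0.58). Man2b1 had 290 and 283 CPM untreated, 314 and 282 CPM after 6 h and 522 and 506 CPM after 18 h in #A-59, above both parental libraries of each time, and its difference at 6 h had an SE of 0.09 (FDR = 1.05e-08). In #B-20 Man2b1 had 185 and 217 CPM, 176 and 187 CPM, and 299 and 325 CPM, and passed only at 6 h, where its log2 fold change was 0.47. Atp6v0a1 had 318 and 313 CPM untreated, 281 and 284 CPM after 6 h and 498 and 474 CPM after 18 h in #A-59, and 224 and 229 CPM, 230 and 228 CPM, and 299 and 320 CPM in #B-20. The difference at 6 h in #A-59 was the smallest of the 3 and did not pass when any 1 of the 4 libraries of that comparison was left out.

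**Figure D4:**
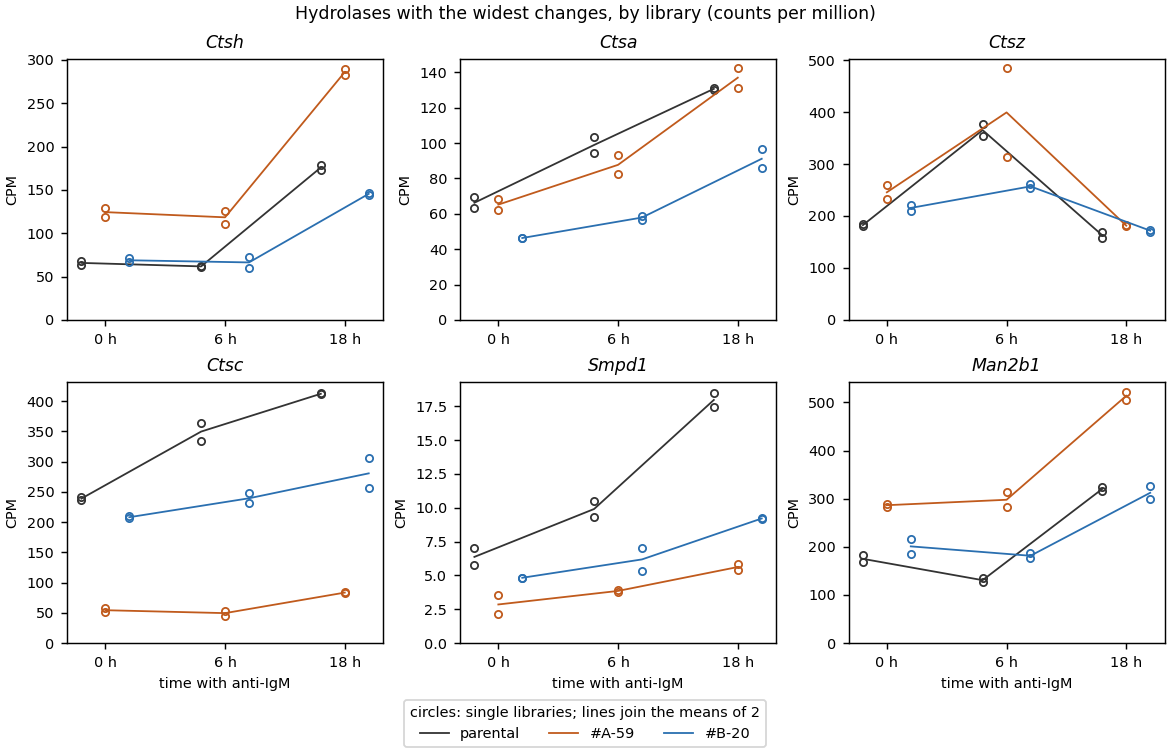
CPM of 6 hydrolase genes (vertical axis from 0) at 0, 6 and 18 h of anti-IgM (horizontal axis) in parental cells, #A-59 and #B-20; circles are single libraries and lines join the means of 2. Ctsh, Ctsa, Smpd1 and Man2b1 are highest at 18 h in each genotype, Ctsz peaks at 6 h, and Ctsc in #A-59 stays between 45.6 and 85.0 CPM.

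In clone #B-20 7 of the 26 hydrolase genes were lower at 0 h, 12 at 6 h and 10 at 18 h, of the 6 membrane genes none, 2 and 1, and of the 16 V-ATPase genes none, 1 and 1. Of all genes tested 6.66%, 8% and 8.55% were lower at these times, so that the V-ATPase shares were below the background. Without correction for GC content, Ctsa, Ctsd (cathepsin D), Sgsh (the heparan N-sulfatase), Glb1 (the beta-galactosidase) and Psap were lower at all 3 times. Their log2 fold changes lay between −0.88 and −0.40. Gaa and Naglu, which acts on heparan sulfate, were lower at 0 and 6 h in the same fit. For Ctsa the values were −0.52 (SE 0.10, FDR = 6.86e-04), −0.77 (SE 0.09, FDR = 4.89e-06) and −0.52 (SE 0.09, FDR = 3.57e-04). It had 56.8 and 59 CPM after 6 h in #B-20, below both parental libraries. Scarb2 was lower at 6 h and 18 h, where it had 28.5 and 26.9 CPM and a log2 fold change of −0.71 (FDR = 1.58e-05). Across all genes, the differences between #B-20 and parental cells went with the GC content of the gene (Spearman's rho of −0.344 at 0 h, −0.271 at 6 h and −0.0622 at 18 h over 15201 genes). With each library corrected for GC content, 3 genes were higher and 3 lower at 0 h in place of none and 7, whereas 1 higher and 17 lower genes at 6 h and none and 12 at 18 h were close to the uncorrected counts.

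Some genes differed from parental cells in the same direction in both clones, which were compared with the same parental libraries. Psap was lower in both at 0 h, Ctsb, Ctsc and Gusb were lower and Man2b1 was higher in both at 6 h, and Ctsb, Ctsc and Smpd1 were lower in both at 18 h. Of the 48 tested lysosomal genes, none, 1 and none were higher in both clones at 0, 6 and 18 h. At these times 1, 3 and 3 were lower in both. Over all genes tested, the shares higher in both were 2.1%, 3.88% and 1.88%. The shares lower in both were 2.64%, 4.05% and 3.04%. These counts are too small to set the lysosomal genes apart from all genes, and the difference was not tested. No gene passed in all 6 comparisons. Ctsb, the cysteine protease cathepsin B, had 174 and 179 CPM after 6 h in parental cells, 142 and 129 CPM in #A-59 and 105 CPM in both libraries of #B-20, and the clones did not overlap with parental cells. At 18 h it had 184 and 182 CPM in parental cells, 149 and 138 CPM in #A-59 and 142 and 137 CPM in #B-20. Against parental cells, Ctsb had log2 fold changes of −0.38 at 6 h and −0.35 at 18 h in #A-59, and of −0.75 and −0.39 in #B-20.

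The clones also differed from each other. In #B-20 1 gene was higher and 12 lower than in #A-59 at 0 h (2.74% of all genes tested were higher and 5.67% lower), 1 was higher and 24 lower at 6 h (8.14% and 10.6%), and 2 were higher and 19 lower at 18 h (8.08% and 8.09%). Ctsc was the gene higher in #B-20 at each time, joined by Smpd1 at 18 h (0.71). Ctsh, Man2b1, Ctsa, Npc2, Tpp1, Fuca1 (the alpha-fucosidase), Glb1, Neu1 (the neuraminidase) and Atp6v0a1 were lower at all 3 times, Ctsh by 0.84 to 0.98. With 1 library left out, 4 to 9 genes passed at 0 h, 13 to 30 at 6 h and 12 to 14 at 18 h. At 0 h 6 genes passed without replicate 1 of #A-59, 4 without replicate 1 of #B-20 and 6 without its replicate 2. At 6 h 13 passed without replicate 1 of #B-20, and at 18 h 12 without replicate 1 of #A-59 and 13 without replicate 2 of #B-20. When only the libraries compared were fitted, 5 genes passed at 6 h. These differences went with GC content across all genes at 0 h (rho of −0.399) and 6 h (−0.453) and less at 18 h (−0.07), and with the GC correction 2 genes were higher at each time, and 11, 23 and 21 were lower.

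Lysosomal genes outside the list also rose at 18 h. These further genes were likewise chosen with earlier results of these data known, so they are no separate check. Of 28 tested further hydrolases and cofactors 16 rose and 1 fell in parental cells, 16 rose and 1 fell in #A-59, and 12 rose and none fell in #B-20. Of 23 further membrane proteins 11, 12 and 8 rose, and 1, 2 and 0 fell. Of all genes tested 16.4%, 14.7% and 11.4% rose in the 3 genotypes, and 16.2%, 17.1% and 11.4% fell. The GM2 activator gene Gm2a, whose product presents gangliosides to hexosaminidase, showed the widest change. It had 4.12 and 7.16 CPM untreated and 42.7 and 42.2 CPM after 18 h in parental cells, 9.85 and 9.01 CPM and then 75.3 and 48.8 CPM in #A-59, and 1.81 and 1.86 CPM and then 9.49 and 7.20 CPM in #B-20. Each pair at 18 h was above its untreated pair, with log2 fold changes of 2.92, 2.72 and 2.18 (FDR at most 3.87e-05). Further DEGs at 18 h in parental cells included Naaa (1.04) and Acp5 (1.19), which rose, and Gnptab (fell by 1.25), whose product starts the mannose 6-phosphate tag of hydrolases.

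Between genotypes, Gnptab and the cysteine protease gene Lgmn differed widely outside the list. Gnptab had 21.8 and 23.2 CPM untreated in parental cells, 5.01 and 5.39 CPM in #A-59 and 14.1 and 15.6 CPM in #B-20, and in #A-59 it fell by 2.12 at 0 h, 2.34 at 6 h and 2.26 at 18 h. Lgmn (the asparaginyl endopeptidase) had 58.8 and 65.7 CPM untreated in parental cells, 37.0 and 37.8 CPM in #A-59 and 12 and 16.2 CPM in #B-20, where it fell by 2.14, 2.81 and 2.42 at 0, 6 and 18 h. At 0 h neither clone overlapped with parental cells in these genes. Aga, which cleaves asparagine-linked sugars, was a DEG in #B-20 at all 3 times, with log2 fold changes from −1.24 to −1.14. The aspartic protease gene Ctse was higher in both clones at all 3 times, by 1.10 to 1.48 in #A-59 and 1.60 to 2.07 in #B-20. Of the relatives of TFEB, Mitf was higher in #A-59 (1.37, 1.09 and 1.91), with at most 5.49 CPM in any library, and Tfe3 fell at 6 h in all 3 genotypes.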

How the data were processed

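Polyadenylated RNA of 18 libraries was sequenced as single-end reads from non-stranded libraries. Per the labels and the study's methods, the authors used bcl2fastq, STAR on GRCm38 and featureCounts, and deposited unnormalised counts per gene for each library. The submitters' processing notes give bcl2fastq 2.20.0.422, STAR 2.5 and featureCounts 1.5.0-p1, whereas the study's methods name an earlier version of bcl2fastq. The counting options are not given in the sources used here. The 53 genes were matched by symbol. They and the other gene lists were chosen with earlier results of these data known. Every one of the 53 may be named, and values per library were given for DEGs and for the genes of each class with the largest changes in parental cells at 18 h.

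Counts were analysed with edgeR 4.0.16 (robust quasi-likelihood test, TMM scaling, filterByExpr, 15318 genes) with 1 mean per group over all 18 libraries, which share 1 estimate of the spread, and Benjamini-Hochberg adjustment (FDR) over all genes in each comparison. Log2 fold changes are those of the fit. The code was tested on simulated data. Alternatives were DESeq2 1.42.0, its size factors, other filters on low counts, a replicate block, a loess correction for GC content (known for 99.24% of the genes), fits of only the libraries compared, an FDR under 0.05, and each library left out. With 2 libraries per group, p-values rest on the spread between replicate experiments shared over all groups, and not on that of the groups compared alone. This spread was uneven. The chi-square of the counts of the 2 libraries of a group, per degree of freedom, ranged from 3.59 in parental cells at 6 h to 58.3 in #B-20 at 6 h. In #A-59 at 6 h it was 33.3. Depth was 11223588 to 29655262 counts per library. Replicate numbers were not taken as pairs in the main fit and were entered as a block as an alternative. Their deviations correlated by more than 0.1 in 23 of 36 pairs of groups and were below 0 in 5. The median correlation was 0.127 and the highest 0.594, so an effect shared by libraries of the same number is not excluded.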

Additional observations from a re-analysis of the deposited data

Results flagged for a closer look

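Ctsc was singled out because its difference from parental cells was not the same in the 2 TFEB mutant clones, by a direct test of #B-20 against #A-59. The log2 fold change of #B-20 against #A-59 was 1.94 at 0 h (SE 0.10, FDR = 1.54e-10), 2.275 at 6 h (SE 0.10, FDR = 1.63e-11) and 1.75 at 18 h (SE 0.10, FDR = 4.28e-10) in edgeR's quasi-likelihood test. In each of the 3 comparisons both #B-20 libraries were above both #A-59 libraries. Each clone is 1 line, and clone and TFEB mutation cannot be told apart here.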

How the results depend on the processing

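No call of any of the 48 genes reversed under the alternatives run. Of 283 calls, 283 held with DESeq2, 280 with DESeq2's size factors, 280 with at least 10 counts in every library, 259 with the GC correction, 251 without a filter and 205 when only the libraries compared were fitted, and 701 of 1132 held when 1 library was left out. The cause of the losses was not tested. Across all genes, fold changes also went with GC content for the 6 h response of #A-59 (rho of 0.23) and the 18 h response of #B-20 (0.228). For the interactions of #A-59 at 6 h and #B-20 at 18 h, rho was 0.235 and 0.286. With the GC correction 12 genes passed in the 6 h response of #A-59 and 20 in the 18 h response of #B-20. Replicate numbers were also entered as a block: 283 calls held, for parental cells, #A-59 and #B-20 the 6 h response then counted 15, 11 and 1 genes, the 18 h response 28, 25 and 22, and 1 gene (Ctsc) passed the interaction of #A-59 at 6 h.

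For the 6 h response of #A-59 (8 genes), 16 passed at an FDR under 0.05, 13 with DESeq2 and 0 when only the libraries compared were fitted. For #B-20 at 6 h (0 genes), 2 passed at an FDR under 0.05 and 1 with DESeq2, with at least 10 counts, with the block, with the GC correction or with only the libraries compared, and at 18 h (20 genes) 13 with only the libraries compared. For #A-59 against parental cells, 15 passed at 0 h, 25 at 6 h and 16 at 18 h at an FDR under 0.05. With only the libraries compared 4 passed at 6 h and 17 at 18 h, and at 18 h 14 passed with DESeq2 and 15 with the GC correction. In the interaction at 6 h, 1 gene passed in #A-59 at an FDR under 0.05, with DESeq2, without a filter or with the GC correction, and in #B-20 1 at an FDR under 0.05, with DESeq2 or without a filter and 2 with the GC correction or only the libraries compared. For #B-20 against #A-59, 21 passed at 0 h at an FDR under 0.05 and 5 at 6 h with only the libraries compared, and for 18 h against 6 h in #A-59 8 passed with only the libraries compared.

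With 1 library left out, the ranges at 6 h and 18 h were 5 to 8 and 18 to 19 in parental cells, 1 to 14 and 15 to 17 in #A-59, and 0 to 0 and 9 to 16 in #B-20. For 18 h against 6 h they were 18 to 20, 11 to 18 and 10 to 13. Against parental cells at 0, 6 and 18 h they were 4 to 8, 5 to 18 and 5 to 7 for #A-59 and 1 to 3, 8 to 11 and 6 to 8 for #B-20, and between the clones 4 to 9, 13 to 30 and 12 to 14. The interactions gave 0 to 2 for #A-59 at 6 h and 0 to 0 in the other 3. Depth limits chiefly Smpd1 and Atp6v1h, with as few as 41 and 77 counts in a library, and the 5 genes that were not tested.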
